A study of Drosophila melanogaster with 12 samples.

Results

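The comparison described here is that of the abdomen with the rest of the body, head and thorax together (head/thorax), in control females of *Drosophila melanogaster*. Its members are the 6 control arrays, 3 of abdomen and 3 of head/thorax, out of 12 arrays, chosen by genotype alone. Each sample was pooled tissue of 12 females. Every control sample mixed 6 females heterozygous for the *loj* allele 00898 with 6 heterozygous for the allele 04026, each allele over a wild-type chromosome, so that all controls carried 1 mutant copy of *loj*, a gene for a p24 protein of the early secretory pathway, and no female without a *loj* mutation was measured. Females were collected as virgins, mated on day 4 and dissected 3 h after mating. The abdomen holds the ovaries, the genital tract, most of the gut and abdominal fat, and the head/thorax holds the brain and the thoracic nervous system, the eyes, antennae and mouthparts, the flight muscles, the foregut and the fat of the head. The 6 arrays of *loj* mutant females (the 2 alleles over each other) of the same body parts served only as a second, separate set.

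In a mated female fly the ovaries make up much of the abdomen. There, nurse cells load the oocyte with maternal RNAs, and the follicle cells around it lay down the vitelline membrane and then the chorion, which together form the eggshell. Yolk proteins are made by both the fat body and the follicle cells. The head is known for the photoreceptors of the compound eye and for the chemosensory organs, in which odorant-binding proteins are secreted, and the thorax for its asynchronous flight muscles, which are rich in mitochondria.

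The deposited value is 1 intensity per probe set and array, on a linear scale, of which 1.59% to 2.73% per array lay under 1. Median intensities were 93.4 to 102 on the abdomen arrays and 145 to 153 on the head/thorax arrays, whereas upper quartiles were 544 to 574 and 559 to 563, so the arrays cannot be put on a common scale without a choice. The sources used here do not state how arrays were scaled. A probe set was therefore called at a Benjamini-Hochberg adjusted p under 0.05 in limma and at least 1.5-fold, and is said here to mark a body part only if it was called in the same direction both as deposited and after the log2 values of each array were centred on their median. Centring moved every difference by 0.59 on the log2 scale towards abdomen, so a mark of head/thorax had to be at least 2.26-fold higher there as deposited and a mark of abdomen 1.5-fold. Of 18769 probe sets, 4239 (22.6%) marked abdomen and 4017 (21.4%) marked head/thorax. As deposited, 4239 (22.6%) were called higher in abdomen and 6185 (33.0%) higher in head/thorax, and after centring 7003 (37.3%) and 4017 (21.4%). The share of calls that were higher in abdomen was thus 40.7% as deposited and 63.5% after centring. The arrays of the body parts did not overlap for 13096 probe sets (69.8%). With 1 probe set taken per gene, 3456 of 11982 genes (28.8%) marked abdomen and 2748 (22.9%) marked head/thorax (called as deposited 3456, 28.8%, and 4035, 33.7%, and after centring 5250, 43.8%, and 2748, 22.9%), and the median log2 difference over all genes, abdomen minus head/thorax, was -0.10 as deposited and 0.49 after centring. All differences below are of log2 intensity, abdomen minus head/thorax, as deposited, and are given ± SE, and means of intensity ± SD over the 3 arrays of a body part. In whole body parts, fewer cells of a type cannot be told apart from less RNA per cell.

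**Figure D1:**
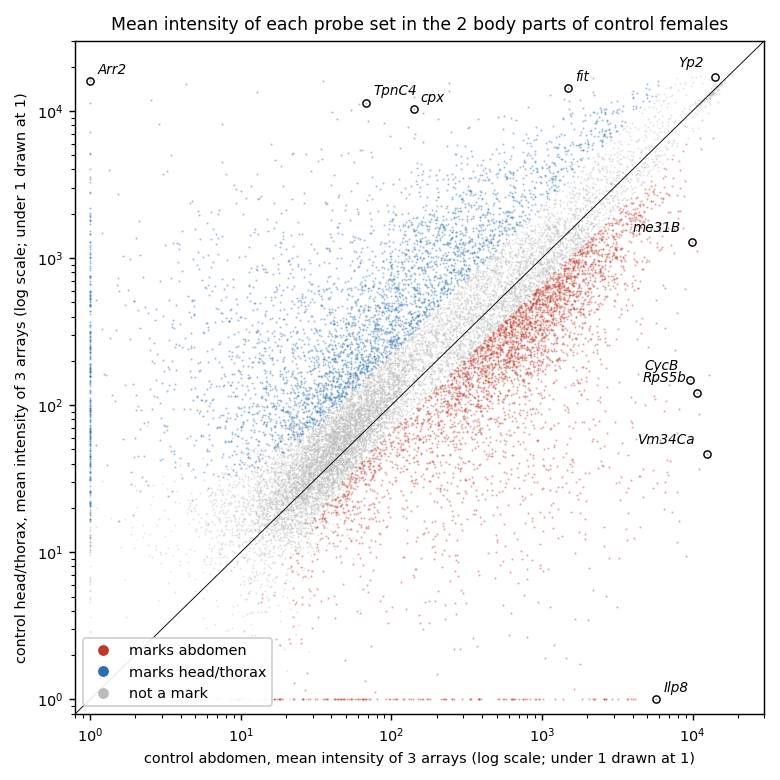
Mean intensity of 18769 probe sets on the 3 control abdomen arrays (horizontal axis) and the 3 control head/thorax arrays (vertical axis), both on log scales with values under 1 drawn at 1; red points mark abdomen, blue points mark head/thorax and grey points mark neither. The marks of head/thorax lie further from the diagonal at their inner edge (2.26-fold) than the marks of abdomen (1.5-fold), and *Yp2* is among the genes near the top of both scales.

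The 2 sets of marks differed in their levels, but they were held to unlike limits. A probe set was taken as above background where it exceeded the level that 95% of the 27 *Bacillus subtilis* control probe sets of the same array stayed under, 91.2 to 131 on abdomen arrays and 206 to 256 on head/thorax arrays. Of the abdomen marks, 3605 (85.0%) were above background on all 3 abdomen arrays, with a median difference of 1.43 on the log2 scale, and of the head/thorax marks 2497 (62.2%) were above it on all 3 head/thorax arrays, with a median of -2.56. At least 4-fold differences were seen in 1072 of these abdomen marks and in 1672 of these head/thorax marks. For 1473 abdomen marks no head/thorax array was above background, and for 889 head/thorax marks no abdomen array was. In such cases the fold has no measured lower end, and it is given as at least the mean log2 signal of the brighter body part over the background level of the dimmer one. By that bound 93 abdomen marks and 200 head/thorax marks differed at least 10-fold. The log2 differences and list medians below include such genes, and for them the log2 difference is not a measured fold. The higher background level of the head/thorax arrays lowers the bounds of abdomen marks and the share of head/thorax marks above background. It also raises the number of abdomen marks with no head/thorax array above background. The limit of 2.26-fold for head/thorax marks, against 1.5-fold, makes their median difference larger. How far the contrasts above rest on these limits was not tested. The body parts also differed in a measure of RNA quality, the log2 ratio of the 3′ to the 5′ control probe set of *Act5C*, which was 0.758 to 0.906 on abdomen arrays and 1.33 to 1.44 on head/thorax arrays (two-sided exact permutation test, p = 0.1, the smallest that 3 against 3 allows). Its part in the results was not tested.

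The genes that define head and thorax followed the labels of the samples. The transcription factors that specify head and eye marked head/thorax in 9 of 10 cases, although 5 of the 10 were above background on no array and 4 were above it on all head/thorax arrays. Among them, *toy*, a Pax6 gene, had 7.27, 4.45 and -2.99 in abdomen, against 705, 721 and 660.2 in head/thorax, a difference of at least 6.502-fold (adjusted p = 5.32e-05), and *gl*, the Glass factor of photoreceptors, had 6.43, 10.5 and 15.2 in abdomen against 287, 263 and 288 in head/thorax (at least 2.61-fold, adjusted p = 1.36e-05). Each lay at background in all abdomens and above it in all heads and thoraces. Of the Hox genes, which give segments their identity along the body, 4 were measured, all of them genes of head and thorax. *Dfd* averaged 3.86 ± 4.81 in abdomen and 257 ± 22.9 in head/thorax (SD, n = 3 each), at least 2.396-fold lower in abdomen. *Antp* was above background on all 6 arrays, at 133 ± 8.57 in abdomen and 306 ± 31.3 in head/thorax (log2 difference -1.20 ± 0.12, adjusted p = 8.04e-05), while *Scr*, at -11.1 ± 4.93 and 86.4 ± 4.79, and *pb*, at 45.2 ± 12.99 and 32.5 ± 9.11, were not above background anywhere. The Hox genes of the abdomen were not analysed here. *loj* itself, which all these females carried in 1 functional copy, had 1065, 921 and 1087 in abdomen and 1219.7, 1152 and 1034 in head/thorax, and the groups overlapped (log2 difference -0.15 ± 0.10, adjusted p = 0.215).

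**Figure D2:**
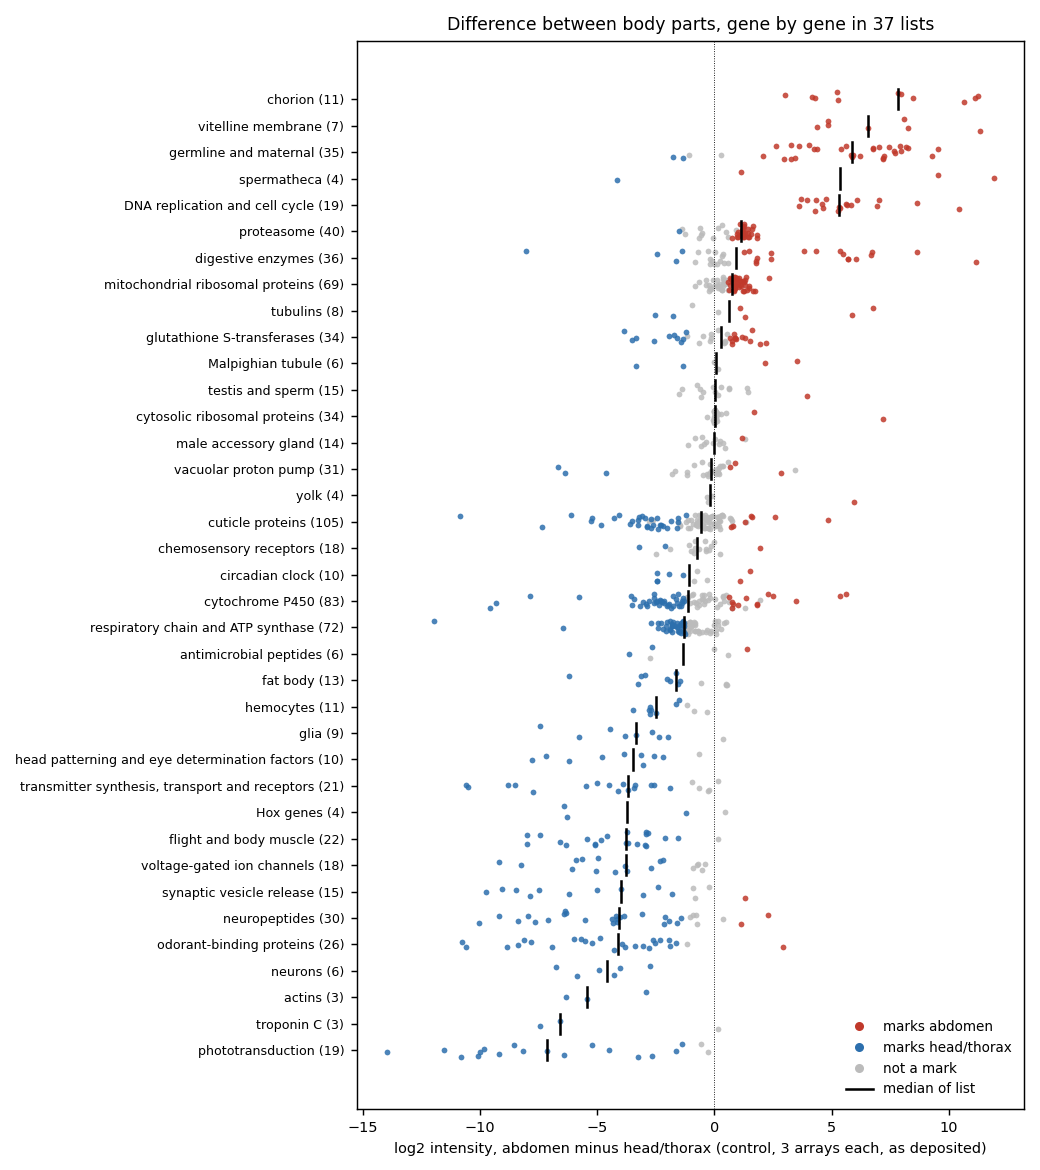
Each point is 1 gene of a list, placed by its log2 difference in intensity, abdomen minus head/thorax (3 control arrays each, as deposited; positive values are higher in abdomen), and coloured red where it marks abdomen, blue where it marks head/thorax and grey where it marks neither; the black bar is the median of the list and the number of genes measured stands in brackets. Lists run from chorion (median 7.83) to phototransduction (median -7.16), and cytosolic ribosomal proteins lie close to 0 apart from *RpS5b* and *RpS19b*. Where the dimmer body part was at background, a difference depends on how near 0 that part read and is not a measured fold.

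Of the 12 abdomen marks with the largest differences among those above background on every abdomen array, 6 are known from the egg, its shell or the spermatheca. With values under 1 set to 1, this ranking depends on how near 0 the dimmer body part read. *Vm34Ca* and *CycB*, with bounds of at least 55.3-fold and 42.6-fold, are not among the 12. The first was *Ilp8*, a relaxin-like peptide hormone known for delaying development after tissue damage, with 5922, 5972 and 5293 in abdomen against -3.11, 0.666 and -19.2 in head/thorax. No head/thorax array came near its background, and the 3 abdomens stood close together, at least 25.5-fold higher (adjusted p = 3.70e-08). *BigH1*, the linker histone of the germline and early embryo, had 2484, 3347 and 2203 in abdomen and -58.2, -46.96 and -68.4 in head/thorax, a difference of at least 11.8-fold. *fs(1)Ya*, a maternal nuclear envelope protein needed for the first embryonic division, had 2481, 2864 and 2441 and -14.1, -18.8 and -22.3 (at least 11.5-fold). The head/thorax values of all 3 genes were below 1 on every array, at the lower end of the scale. *tum*, a Rac GTPase-activating protein of cytokinesis, reached 1838 ± 273 in abdomen and -3.601 ± 4.68 in head/thorax (at least 8.14-fold). *CG11674*, with 4024 ± 516 in abdomen (at least 17.8-fold), *CG17234*, with 2933 ± 358 (at least 13.01-fold), and *CG44005*, with 2676 ± 575 (at least 11.8-fold), are known only by number. The others were *Send2*, *Vm32E*, *Cp19*, *dec* and *Jon99Fi*.

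All eggshell genes measured were higher in abdomen. All 7 vitelline membrane genes and all 11 chorion genes measured marked abdomen, with median log2 differences of 6.55 and 7.83. No gene of either list was above background on all 3 head/thorax arrays, so these medians are not measured folds. They are the values of *psd* and *Cp38*, whose bounds were at least 3.53-fold and 28.6-fold. Summed over the vitelline membrane genes, intensity was 28010 to 29950 per abdomen array and 155 to 228 per head/thorax array. *Vm34Ca*, a vitelline membrane protein, had 12750.4, 12090.1 and 12382 in abdomen against 58.98, 43.04 and 36.6 in head/thorax, and *Vm26Aa*, another, 10971, 11393 and 10683 against 33.4, 33.4 and 43.1. The 3 abdomens differed little from each other here, and the bounds were at least 55.3-fold (adjusted p = 1.34e-07) and at least 49.1-fold (adjusted p = 4.38e-08). *psd*, *fs(1)N* and *clos*, which are needed to build the membrane, averaged 795 ± 69.7, 1179.8 ± 295 and 874 ± 172 in abdomen, and all 3 were at background in head/thorax. The chorion list was less even: its sum ran from 26170 to 50560 over the abdomen arrays and from 230 to 304 over the head/thorax arrays. *Cp15* was steady, with 7239.6, 8083 and 8466 in abdomen against 10.8, 27.7 and 38.5 in head/thorax (at least 35.3-fold, adjusted p = 3.89e-06). *Cp36* and *Cp38*, made early in chorion formation, had 9462, 4529 and 5787 and 8980.0, 5218 and 5609 in abdomen, both highest in the first sample.

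The abdomens stood far apart in *Cp16*, *Cp18* and *Cp19*, structural proteins made late in chorion formation. *Cp18* had 4680.0, 384 and 601 in abdomen and 20.6, 36.4 and 25.9 in head/thorax, so abdomen 1 was the only bright sample. Its bound, at least 4.57-fold (adjusted p = 0.00157), was 2.14-fold without abdomen 1. *Cp16* had 5817, 1536 and 453 in abdomen against -14.5, -17.98 and -28.2 in head/thorax (at least 7.11-fold, and 3.72-fold without abdomen 1). *Cp19* had 7049.7, 3447 and 609 in abdomen against -24.7, -29.9 and -29.3 in head/thorax (at least 10.9-fold, and 22.0-fold without abdomen 3). Abdomen 1 was the highest in all 3, and *Cp19* and *Cp16* were lowest in abdomen 3 whereas *Cp18* was lowest in abdomen 2. *yellow-g* and *yellow-g2*, members of the yellow family needed in the eggshell, took another order, with 1933, 302 and 1350.2 and 1305, 256 and 751, lowest in abdomen 2. Without abdomen 2 their bounds were 7.20-fold and 4.42-fold, against 4.12-fold and 2.81-fold over all arrays. All stayed above every head/thorax array. The plot of eggshell genes by array shows these spreads side by side.

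**Figure D3:**
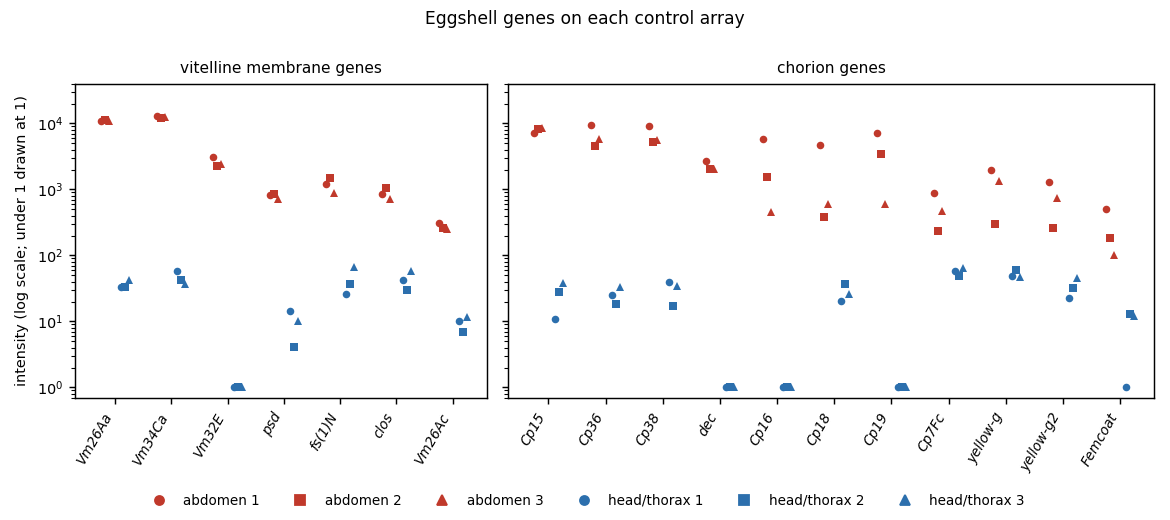
Intensity of 7 vitelline membrane genes (left) and 11 chorion genes (right) on each control array, abdomen in red and head/thorax in blue, with a symbol for each replicate number, on a log scale with values under 1 drawn at 1. The abdomen arrays agree closely for *Vm26Aa* and *Vm34Ca* and spread from 384 to 4680 for *Cp18*.

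Genes of the germline and of the maternal store marked abdomen in 31 of 35 cases measured, at a median log2 difference of 5.87. *osk*, which organises the germ plasm, had 6527, 7514 and 6339 in abdomen against 13.9, 8.53 and 104 in head/thorax (at least 30.2-fold, adjusted p = 1.30e-04), and *bcd*, the anterior determinant, 2451, 3440.2 and 2478 against 6.38, 10.3 and 10.9 (at least 12.3-fold, adjusted p = 4.88e-07). Both were at background in every head/thorax sample. *exu*, which is needed to localise *bcd* RNA, averaged 7137 ± 1088 and 41.4 ± 14.2 (at least 31.6-fold), and *zpg*, a gap junction protein of germ cells, 4705 ± 453 and 23.9 ± 19.1 (at least 20.9-fold). *me31B* and *smg*, both repressors of maternal messages, were also present in head/thorax: *me31B* averaged 9908 ± 759 in abdomen and 1276 ± 95.5 in head/thorax (log2 difference 2.96 ± 0.083, adjusted p = 3.83e-07) and *smg* 5689.7 ± 861 and 520.1 ± 18.5 (log2 difference 3.44 ± 0.11). *vas*, an RNA helicase that defines the germ line, marked abdomen but was dim, with 73.8, 98.98 and 56.97 in abdomen and 11.3, 22.8 and 21.1 in head/thorax, above background on 1 abdomen array only.

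Some members ran the other way. *grk*, the ligand by which the oocyte signals to follicle cells, had 359, 379 and 377 in abdomen and 979, 922 and 893 in head/thorax, a log2 difference of -1.32 ± 0.070 (adjusted p = 4.28e-06) with no overlap. *stau*, an RNA-binding protein that also acts in neurons, had 268, 387 and 238 and 1022, 1000.5 and 973 (log2 difference -1.78 ± 0.18, adjusted p = 9.36e-05). Both were above background on all 6 arrays and, with *tud* and *fs(1)K10*, which marked neither body part, were the members of the list that did not mark abdomen.

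All 19 genes of DNA replication and the cell cycle marked abdomen (median 5.32), and none was above background on all 3 head/thorax arrays. *CycB*, the mitotic cyclin, had 9242, 10028 and 9401 in abdomen against 129.8, 99.7 and 212 in head/thorax, at least 42.6-fold (adjusted p = 1.57e-06). *PCNA*, the sliding clamp of DNA polymerase, averaged 5636 ± 643 and 111 ± 21.6 (at least 25.02-fold), and *RnrL*, the large subunit of ribonucleotide reductase, 4122 ± 664 and 105 ± 6.53 (at least 18.2-fold). The replicative helicase was represented by *Mcm2*, *Mcm5* and *Mcm6*, at 2168 ± 463, 2578 ± 361 and 2465 ± 203 in abdomen and 80.4 ± 12.2, 52.8 ± 7.23 and 189.8 ± 19.2 in head/thorax. *twe*, the Cdc25 phosphatase of meiosis, averaged 1823 ± 231 and 116 ± 3.79 (at least 8.09-fold, adjusted p = 3.06e-07). It stands in the testis list as well, where it was the sole mark of 15 genes.

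The 3 yolk protein genes, in contrast, marked neither body part. *Yp1* had 14548, 14155 and 13715 in abdomen and 15122, 15267 and 15011 in head/thorax, *Yp2* 14315, 14183 and 13545 and 16716, 17043 and 16951, and *Yp3* 13304, 13047 and 12675 and 16368, 16257 and 15845. Abdomen was below head/thorax on every array for each of them, by -0.10 ± 0.046, -0.27 ± 0.046 and -0.31 ± 0.046 on the log2 scale (adjusted p = 0.105, 0.00172 and 7.81e-04), all under 1.5-fold. The direction turned with centring, to 0.49, 0.32 and 0.28. The highest intensity per array was 17735 to 18378, so these values lie near the top of the scale. *yl*, the receptor through which the oocyte takes up yolk, had 3282, 4360.3 and 2589.8 in abdomen against 58.4, 38.6 and 67.9 in head/thorax (at least 14.9-fold, adjusted p = 1.95e-06).

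Genes of the spermathecae, the sperm stores of the female, marked abdomen in 3 of 4 cases. *Send2* and *Send1*, serine proteases of the spermathecal secretory cells, had 3996, 3572 and 4169 and 919, 891 and 1256 in abdomen against -3.797, -2.46 and -15.5 and 2.52, -4.96 and 0.827 in head/thorax. These are bounds of at least 17.4-fold and 4.501-fold (adjusted p = 4.38e-08 and 1.81e-06), with close replicates. *Hr39*, a nuclear receptor needed to form these glands, averaged 473 ± 40.5 and 214 ± 12.9 (log2 difference 1.14 ± 0.10), although another of its probe sets marked head/thorax. *lz*, a Runx factor that also acts in the eye, was lower in abdomen, at 5.34 ± 2.26 against 91.2 ± 4.5000, and above background on no array.

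Although the females had mated 3 h earlier, most transcripts of male accessory glands and testis stayed at background. Of 14 accessory gland genes 11, and of 15 testis and sperm genes 12, were above background on no array, and the lists' median log2 differences were -0.03 and 0.04. *SP*, the sex peptide that changes female behaviour after mating, had 53.03, 63.9 and 71.7 in abdomen and 80.9, 112 and 145 in head/thorax, and *Acp26Aa*, ovulin, 24.4, 29.3 and 8.98 and -6.47, 20.4 and 21.3. *Mst57Da*, an accessory gland gene, was the only mark of that list, with 154, 129 and 187 in abdomen and 56.8, 73.9 and 74.5 in head/thorax (log2 difference 1.19 ± 0.19, adjusted p = 0.00136). *betaTub85D*, the tubulin of the sperm tail, averaged 38.8 ± 13.01 and 33.3 ± 2.31, and *dj*, a sperm tail protein, 15.8 ± 15.5 and 14.2 ± 3.72.

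Digestive enzymes were split. Of 36 genes, 18 marked abdomen, 4 marked head/thorax and 14 neither, with a median of 0.92. Over all genes 28.8% marked abdomen and 22.9% head/thorax. *Jon99Fi*, a Jonah serine protease of the gut, had 8059.6, 7718 and 7766 in abdomen against -0.489, 1.22 and 34.3 in head/thorax (at least 34.99-fold, adjusted p = 2.12e-04), and *Jon25Biii*, of the same family, 7570.3, 7024 and 6335 against 111, 138 and 162 (at least 31.03-fold). *mag*, the gut lipase magro, had 3256, 2316 and 2281 and 16.5, 33.6 and 223 (at least 11.5-fold). In contrast *alphaTry*, a trypsin, was about as bright in both parts, with 13478, 13446 and 13117 in abdomen and 13708, 14797 and 14149 in head/thorax (log2 difference -0.09 ± 0.050, adjusted p = 0.155, and 0.50 after centring). *Jon65Aiv* and *Jon65Aiii*, at 11222 ± 319 and 9872 ± 572 in abdomen and 11289 ± 943 and 11145 ± 698 in head/thorax, were alike in this. *LysP*, a digestive lysozyme, had 35.6, 2.47 and 65.1 in abdomen against 4496, 4782 and 4821 in head/thorax, at least 43.9-fold less in abdomen (adjusted p = 5.97e-04). The maltase genes went both ways: *Mal-A7* averaged 2001 ± 272 in abdomen and 110.2 ± 61.1 in head/thorax, and *Mal-B1* 270.2 ± 16.8 and 1500.2 ± 325 (log2 difference -2.45 ± 0.15). Of the 18 abdomen marks in this list, 15 had their highest head/thorax value in sample 3, among them *mag*, and so did 17 of 31 germline marks. In DNA replication and cell cycle it was 7 of 19, in chorion 4 of 11 and in vitelline membrane 4 of 7. Head/thorax sample 3 also had the highest median intensity of its group, 153 against 145 and 147. The share over all probe sets was not computed, and the part of this in the results was not tested. Of 6 genes of the Malpighian tubules, the excretory organs, *ZnT35C*, a zinc transporter, and *Alp4*, an alkaline phosphatase, marked abdomen, at 1606 ± 117 and 1869 ± 236 against 142 ± 7.57 and 419 ± 26.3 in head/thorax, while *NtR*, related to ligand-gated ion channels, and *Lkr*, the leucokinin receptor, marked head/thorax. *Irk3*, the only defining gene of the tubule list that was measured, marked neither part (log2 difference 0.17).

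Among the 12 largest head/thorax marks, the eye was the best represented organ for which a role is known. The ranking has the same limit as that of abdomen. *Arr1* and *TpnC4*, with bounds of at least 126-fold and 106.5-fold, are not among the 12. *Arr2*, the main arrestin of photoreceptors, had -14.02, -13.4 and -20.03 in abdomen against 15929, 16299.5 and 15328 in head/thorax, at least 148-fold less in abdomen (adjusted p = 1.16e-08). *Pdh*, the photoreceptor retinol dehydrogenase, had 9.81, 0.128 and -1.31 and 7961, 8155 and 8164 (at least 75.7-fold), and *inaC*, the protein kinase C of the eye, -2.97, 1.502 and 0.394 and 3199, 3481 and 3586 (at least 31.97-fold). Abdomens were at or near 0 for all 3 genes. The largest difference among these marks belonged to *CG14645*, a gene known only by number, with -21.5, -14.5 and -25.04 in abdomen against 17029, 16568 and 15948 in head/thorax (at least 154-fold, adjusted p = 1.16e-08). *CG34324*, at 4.32 ± 7.79 in abdomen and 15122 ± 145 in head/thorax (at least 141-fold), *CG14125*, at 2.55 ± 5.42 and 11883 ± 612 (at least 111-fold), and the mucin *Muc68D*, at -2.52 ± 4.92 and 11343 ± 628 (at least 106-fold), were marks of the same kind. *CG8343*, *CG8329*, *CG43673*, *CG31077* and *ND-B8* complete the 12.

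Phototransduction genes marked head/thorax in 17 of 19 cases, with a median of -7.16, and their summed intensity was 1825 to 2141 per abdomen array and 66670 to 68860 per head/thorax array. Of the 30 genes of the list, those not measured included all of its defining genes, *ninaE*, *Rh3*, *Rh4* and *norpA*. *Rh2*, *Rh5* and *Rh6* were not measured either. *Arr1*, the second arrestin, averaged 12.8 ± 3.94 in abdomen and 13462 ± 109 in head/thorax (at least 126-fold). *trpl*, a light-gated channel, averaged 15.8 ± 1.12 and 5953 ± 336 (at least 55.6-fold). The G protein of the cascade was represented by *Galphaq*, at 32.8 ± 9.44 and 4544 ± 85.9, and *Gbeta76C*, at 63.8 ± 12.1 and 5453 ± 214. *ninaD* and *pinta*, which act in the uptake and handling of carotenoids and retinoids, were the members that marked neither part, at 255 ± 46.9 and 831 ± 64.8 in abdomen and 325 ± 138 and 1230.3 ± 24.8 in head/thorax.

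The classes of chemosensory genes differed in how far they could be measured. The odorant-binding proteins, soluble carriers secreted around sensory neurons, marked head/thorax in 24 of 26 cases (median -4.09), and 22 were above background on all 3 head/thorax arrays. *Obp19d* had 65.7, 72.8 and 71.8 in abdomen against 8308, 8389 and 8854 in head/thorax (at least 79.6-fold less in abdomen, adjusted p = 3.55e-08), and *lush*, which is needed to sense a male pheromone, 11.8, 5.12 and 17.1 against 647, 559.7 and 721 (at least 5.98-fold). Some were above background in abdomen too: *Obp99c* averaged 4002 ± 301 and 12249.7 ± 345 (log2 difference -1.62 ± 0.068). *Obp19c* was the exception in direction, with 636, 174 and 425 in abdomen and 60.2, 54.2 and 32.1 in head/thorax (log2 difference 2.94 ± 0.49, adjusted p = 0.0015), and its abdomens were far apart. Of the receptors, 17 of 18 were above background on no array. Of these 18, 2 marked head/thorax and 1 abdomen (median -0.73), against 22.9% and 28.8% of all genes. *Orco*, the co-receptor of odorant receptors, marked head/thorax with 19.8, 16.2 and 18.7 in abdomen and 180.5, 154 and 176 in head/thorax although it stayed under the background level there, and *Gr66a*, a bitter taste receptor, did so with 8.84 ± 3.14 and 36.5 ± 3.99. *Or22a*, an odorant receptor, marked abdomen with 46.6, 69.3 and 65.5 in abdomen and 6.196, 22.4 and 27.2 in head/thorax, also at background (adjusted p = 0.0222), and lost the call without abdomen 2 or 3.

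Neuronal genes marked head/thorax in most cases: 6 of 6 general neuronal markers, 11 of 15 genes of synaptic vesicle release, 13 of 18 voltage-gated ion channels, 16 of 21 genes of transmitter synthesis, transport and reception, and 8 of 9 glial genes, with medians from -4.60 to -3.36. *elav*, the RNA-binding protein of all neurons, had 73.1, 79.8 and 58.4 in abdomen against 479.8, 538 and 407 in head/thorax (at least 4.41-fold less in abdomen, adjusted p = 7.60e-06), and *nSyb*, the vesicle SNARE, -16.8, 1.24 and -24.8 against 916, 982 and 866 (at least 8.61-fold, adjusted p = 1.95e-07). No abdomen array was above background for either. *cpx*, complexin, which clamps vesicle fusion, was bright, with 141 ± 11.1 in abdomen, on all arrays above background, and 10326 ± 289 in head/thorax (log2 difference -6.20 ± 0.075). *Snap25*, its SNARE partner, averaged 18.5 ± 5.01 and 4191 ± 158 (at least 39.2-fold). Of the channels, *Sh*, a potassium channel, averaged 4.797 ± 5.14 and 978 ± 34.5 (at least 9.14-fold), *slo*, a calcium-activated one, 89.4 ± 15.6 and 1664 ± 143, and *para*, the sodium channel, was dim in both, at 37.4 ± 15.1 and 162 ± 3.65. Of the transmitter genes, the list also held genes of monoamines, such as *Vmat*, which marked head/thorax (log2 difference -2.69). Those described here are of acetylcholine and GABA. *ChAT*, which makes acetylcholine, averaged 3.57 ± 0.9504 and 1265 ± 14.2 (at least 11.8-fold), *VAChT*, its vesicular transporter, -3.12 ± 6.98 and 753 ± 31.1 (at least 7.04-fold), and *Gad1*, which makes GABA, 3.25 ± 2.88 and 3912 ± 128 (at least 36.6-fold). In glia, *repo*, the glial homeodomain factor, averaged 194 ± 39.7 and 754 ± 23.6 (log2 difference -1.98 ± 0.16), *Gs2*, glutamine synthetase, 1531 ± 254 and 9466 ± 241 (log2 difference -2.64 ± 0.11), and *alrm*, a gene of astrocytes, 5.897 ± 6.68 and 622 ± 118 (at least 5.75-fold).

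Of 30 neuropeptide genes 23 marked head/thorax and 2 marked abdomen (median -4.08). *Pdf*, the peptide of clock neurons, had 16.3, 6.48 and 14.4 in abdomen against 1643, 1384 and 1663 in head/thorax, at least 14.6-fold less in abdomen (adjusted p = 3.07e-06). *Akh*, the adipokinetic hormone of the corpora cardiaca, had -63.4, -72.9 and -93.5 and 1234, 979 and 985 (at least 9.91-fold). *Nplp3* was bright, at 54.4 ± 21.7 and 10197 ± 737 (at least 95.2-fold), and *Ms*, myosuppressin, averaged 103 ± 12.8 and 2040.0 ± 182 (log2 difference -4.31 ± 0.12). *CCHa2* and *AstC*, peptides made in the gut as well as in the brain, were above background on all abdomen arrays, at 633 ± 133 and 300.0 ± 56.1, against 2771 ± 277 and 1291 ± 96.5 in head/thorax. The abdomen marks were *ETH*, the ecdysis triggering hormone, with 142, 162 and 126 in abdomen and 27.1, 37.4 and 24.8 in head/thorax (log2 difference 2.28 ± 0.22, adjusted p = 7.83e-05), and *Ilp7*, an insulin-like peptide made by neurons that innervate the genital tract, with 129, 110.5 and 121 and 53.6, 59.9 and 50.7 (log2 difference 1.14 ± 0.15, adjusted p = 4.39e-04). Both were dim, above background on 2 of 3 abdomen arrays.

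Muscle genes summed to an intensity of 11880 to 15050 per abdomen array and 156700 to 159500 per head/thorax array, with 21 of 22 marking head/thorax (median -3.76). *fln*, flightin of the flight muscle thick filament, had 26.5, 40.1 and 53.9 in abdomen against 9953, 9607 and 9782 in head/thorax, at least 91.5-fold less in abdomen (adjusted p = 4.80e-07). Other muscle genes were bright in abdomen as well. *Mf*, myofilin, averaged 2190.4 ± 188 and 16620.5 ± 191 (log2 difference -2.93 ± 0.072), and *Mlp60A*, a muscle LIM protein, 2417 ± 304 and 10436 ± 94.3 (log2 difference -2.12 ± 0.093). Of 6 actin genes in the list 3 were measured, all of them expressed in muscle, and they differed in this. *Act88F*, of the indirect flight muscles, had 60.8, 51.998 and 57.8 in abdomen against 4387, 4482 and 4649.6 in head/thorax (at least 42.1-fold, adjusted p = 4.38e-08), *Act79B* 215, 172 and 224 and 8737, 9122 and 8734 (log2 difference -5.45 ± 0.11), and *Act87E*, of general body muscle, 894, 749 and 1133 and 6911, 6488 and 7221 (log2 difference -2.91 ± 0.15). The abdomen thus had *Act87E* and *Act79B* above background on all arrays and *Act88F* on none. Of the troponin C genes, the calcium sensors of the thin filament, *TpnC4*, of flight muscle, had 44.3, 73.2 and 87.2 and 11387, 11509.7 and 11245 (at least 106-fold), *TpnC41C* 113, 62.3 and 95.4 and 8417, 8175 and 8375 (log2 difference -6.57 ± 0.20), and *TpnC73F* 208, 198 and 327 and 214, 203 and 217, which overlapped (adjusted p = 0.485).

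Tubulins went both ways, with 4 of 8 marking abdomen and 2 head/thorax, against 28.8% and 22.9% of all genes. *alphaTub67C*, the maternal alpha-tubulin, had 6009.8, 6803 and 5409 in abdomen against 63.1, 38.03 and 72.7 in head/thorax (at least 26.96-fold, adjusted p = 8.68e-07), and *gammaTub37C*, the maternal gamma-tubulin, 1402, 1843 and 1317 against 30.5, 20.8 and 25.8 (at least 6.71-fold). *betaTub56D*, the widely used beta-tubulin, averaged 7383 ± 682 and 3476 ± 35.1 (log2 difference 1.08 ± 0.073), and *betaTub60D* 753 ± 86.7 and 303 ± 33.6 (log2 difference 1.31 ± 0.12). *betaTub97EF* was lower in abdomen, at 616 ± 89.1 against 2069.8 ± 158 (log2 difference -1.76 ± 0.12), as was *alphaTub85E*, at 25.3 ± 6.66 against 144 ± 17.7, under background on all arrays, while *alphaTub84D* averaged 38.7 ± 3.88 and 74.04 ± 8.56 and was not a mark.

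**Figure D4:**
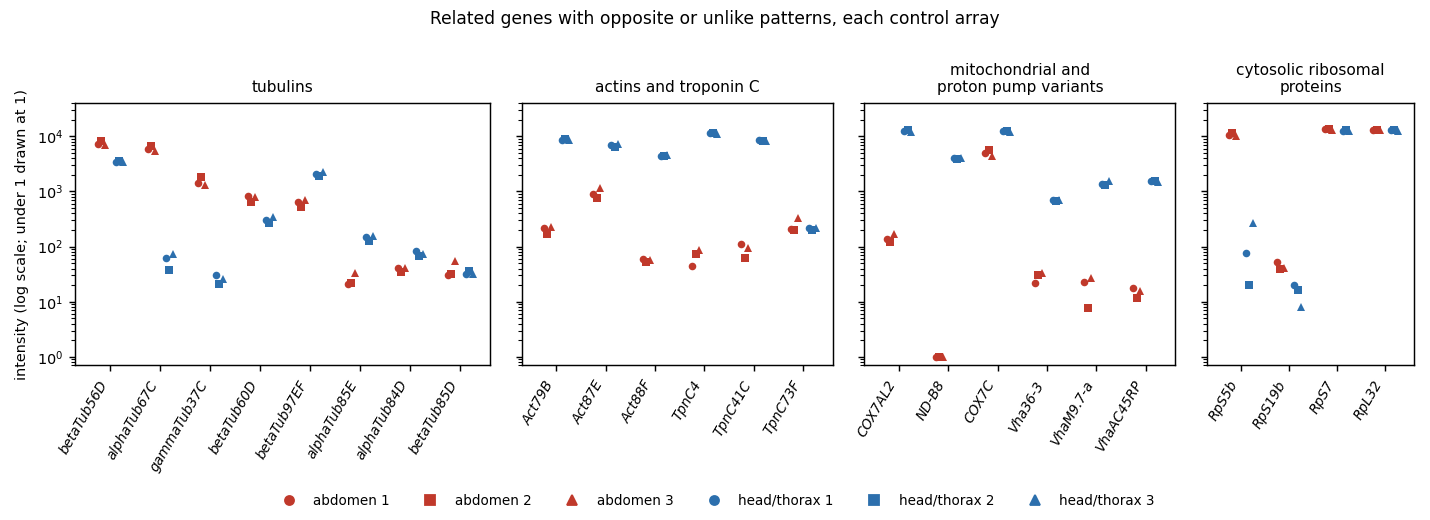
Intensity of related genes on each control array, abdomen in red and head/thorax in blue, with a symbol for each replicate number, on a log scale with values under 1 drawn at 1; the panels hold tubulins, actins and troponin C, variants of the respiratory chain and proton pump, and cytosolic ribosomal proteins. *alphaTub67C* and *RpS5b* are bright in abdomen only, and *Act88F* and *ND-B8* in head/thorax only, beside relatives such as *RpL32* that are level as deposited.

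Of 34 cytosolic ribosomal proteins 32 marked neither body part, and their median log2 difference was 0.03 as deposited. After centring the median was 0.63, and 28 were called higher in abdomen. *RpL32* averaged 13130.0 ± 97.8 in abdomen and 12947 ± 416 in head/thorax. The list summed to 392900 to 404200 per abdomen array and 371600 to 383700 per head/thorax array. Many members thus lay near the top of the scale, where 99.9% of probe sets were under 14439 to 14785 on abdomen arrays and 15202 to 15713 on head/thorax arrays, and its part in the small differences was not tested. One member stood outside: *RpS5b*, the germline form of a small-subunit protein, had 10649, 11459 and 10179 in abdomen against 76.7, 20.2 and 267 in head/thorax (log2 difference 7.17 ± 0.83, adjusted p = 2.26e-04, and 6.23 without head/thorax sample 2). It was above background in head/thorax sample 3 only. *RpS19b*, another variant, marked abdomen at levels under background, 44.5 ± 7.4000 and 14.8 ± 6.27. Proteins of the mitochondrial ribosome were moderately higher in abdomen: 41 of 69 marked abdomen and none head/thorax (median 0.77). *mRpS18A* averaged 2056 ± 283 and 619.7 ± 23.8 (log2 difference 1.72 ± 0.10) and *mRpL12* 2094 ± 232 and 746 ± 57.8 (log2 difference 1.49 ± 0.10). The proteasome, the main protease of the cytosol, showed the same, with 27 of 40 marking abdomen and 1 head/thorax (median 1.15); *Prosbeta4* averaged 4919 ± 468 and 1578 ± 45.8 (log2 difference 1.64 ± 0.079, adjusted p = 2.90e-06) and *Prosalpha5* 5422 ± 440.1 and 2448 ± 82.8 (log2 difference 1.14 ± 0.071). The head/thorax mark, *Prosbeta4R2*, was at background on all arrays.

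The respiratory chain and ATP synthase ran against the mitochondrial ribosome. Of 72 genes 38 marked head/thorax and none abdomen (median -1.30 as deposited and -0.71 after centring). *UQCR-14* and *Cyt-c1*, of complex III, averaged 5905 ± 485 and 4902 ± 288 in abdomen and 15016 ± 387 and 13048 ± 564 in head/thorax (log2 differences -1.35 ± 0.069 and -1.41 ± 0.064), and *ATPsynD*, of ATP synthase, 4720.4 ± 399 and 11764 ± 339.9 (log2 difference -1.32 ± 0.073). A pair of genes stood far out. *COX7AL2*, related to subunit VIIa of cytochrome c oxidase, had 136, 122 and 167 in abdomen against 12396, 12821 and 12218 in head/thorax (log2 difference -6.47 ± 0.12, adjusted p = 9.62e-08). *ND-B8*, a subunit of complex I, had -53.7, -10.6 and -46.7 against 4031, 3948 and 4062 (at least 37.5-fold, adjusted p = 4.38e-08). The groups did not overlap for either, and *ND-B8* was at background in every abdomen. The vacuolar proton pump, an ATPase that acidifies compartments, had 25 of 31 genes that marked neither part, 3 that marked head/thorax and 3 that marked abdomen (median -0.14). Over all genes 22.9% marked head/thorax and 28.8% abdomen. After centring the median of the pump genes was 0.45, and 14 were called higher in abdomen. The head/thorax marks *VhaAC45RP*, *VhaM9.7-a* and *Vha36-3* averaged 15.2 ± 3.13, 19.2 ± 10.1 and 28.5 ± 6.27 in abdomen and 1522 ± 7.78, 1408 ± 112 and 688 ± 4.11 in head/thorax, at least 14.2-, 13.1- and 6.43-fold lower in abdomen. Of the abdomen marks, *Vha100-5* averaged 419 ± 82.1 and 263 ± 36.1 (log2 difference 0.66 ± 0.17, adjusted p = 0.0109, and 0.52 and not called without abdomen 1), and *Vha16-5* and *Vha100-3* were at background on all arrays.

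Most fat body genes were lower in abdomen although both samples hold fat: 9 of 13 marked head/thorax and none abdomen (median -1.64 as deposited and -1.05 after centring). *fit*, a female-biased peptide gene of the head fat body, had 1494, 1232 and 1765 in abdomen against 13739, 15042 and 14067 in head/thorax (log2 difference -3.27 ± 0.13, adjusted p = 1.26e-06). *Lsp2*, a storage protein, had 77.9, 60.4 and 155 and 5496, 7171 and 7674 (log2 difference -6.22 ± 0.34, adjusted p = 5.07e-06). *apolpp*, which carries lipid in the hemolymph, averaged 4888 ± 730.2 and 14410.1 ± 369 (log2 difference -1.57 ± 0.10), *FASN1*, a fatty acid synthase, 5151 ± 583 and 14028 ± 494 (log2 difference -1.45 ± 0.089), and *AkhR*, the receptor of the adipokinetic hormone, 296 ± 65.1 and 2574 ± 109 (log2 difference -3.15 ± 0.16). *bmm*, the main fat body lipase, and *Lsd-2*, a lipid droplet protein, were not marks, at 2536 ± 197 and 6905 ± 999 in abdomen and 1813 ± 157 and 4748 ± 202 in head/thorax.

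Hemocyte genes marked head/thorax in 8 of 11 cases and abdomen in none (median -2.50). *Hml*, hemolectin of plasmatocytes, had 182, 135 and 136 in abdomen and 1795, 1588 and 1616 in head/thorax (log2 difference -3.47 ± 0.13, adjusted p = 1.21e-06), *PPO1*, a prophenoloxidase, 371, 264 and 419 and 2384, 2304 and 2238 (log2 difference -2.74 ± 0.17), and *eater*, a phagocytic receptor, 53.04, 48.2 and 52.4 and 373, 379.6 and 317 (at least 3.32-fold lower in abdomen). In each the groups were well apart. Of 6 antimicrobial peptide genes, *Drs*, drosomycin, marked abdomen, with 5612, 6085 and 7153 against 3094, 1738 and 2424 in head/thorax (log2 difference 1.41 ± 0.21, adjusted p = 7.81e-04). *Def*, defensin, marked head/thorax, with 136, 129 and 147 and 654, 1042 and 924 (log2 difference -2.65 ± 0.18, adjusted p = 1.26e-05), as did *Mtk*, metchnikowin, with 202, 149 and 867 and 3887, 1591 and 8512 (log2 difference -3.66 ± 0.81, adjusted p = 0.00622, and -4.43 without abdomen 3). *Mtk* was far apart between samples of the same body part.

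Of 10 clock genes 5 marked head/thorax and 2 abdomen, against 22.9% and 28.8% of all genes. *cry*, the light-sensing cryptochrome, averaged 349 ± 38.6 in abdomen and 1917 ± 72.96 in head/thorax (log2 difference -2.46 ± 0.10), *Pdp1* and *vri*, the transcription factors of its second loop, 285 ± 35.8 and 229.9 ± 16.9 against 1537 ± 106 and 1239 ± 113, and *Clk*, the activator, 107 ± 25.4 against 404 ± 56.4 (log2 difference -1.93 ± 0.20). *per* was dim, at 121 ± 10.4 and 301 ± 24.4 (log2 difference -1.32 ± 0.12), and *tim* averaged 242 ± 12.7 and 447 ± 43.01 and was not called after centring. *cyc*, the partner of *Clk*, went the other way, at 1334 ± 120.4 and 468 ± 73.02 (log2 difference 1.52 ± 0.13, adjusted p = 4.68e-05), as did *dco*, the kinase of *per*, at 2336 ± 268 and 1079.9 ± 49.1 (log2 difference 1.11 ± 0.094).

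The large families were mixed, and over all genes 28.8% marked abdomen and 22.9% head/thorax. Of 105 cuticle protein genes 31 marked head/thorax and 7 abdomen. In all 71 were at background on every array, of which 55 marked neither part, so some marks rest on values under background. *Cpr72Ec* was lower in abdomen, at 0.0932 ± 4.47 against 3533 ± 74.4 (at least 33.05-fold), and so was *Cpr62Bb*, at 21.7 ± 8.02 against 1437 ± 40.1 (at least 13.4-fold), whereas *Cpr49Ab* was higher, at 1434 ± 96.7 against 490.4 ± 128 (log2 difference 1.58 ± 0.18). Of 83 cytochrome P450 genes, which oxidise hormones and foreign compounds, 38 marked head/thorax and 13 abdomen. *Cyp6a19* had 5328, 6257 and 5176 in abdomen against 122, 104 and 120.2 in head/thorax (at least 24.8-fold, adjusted p = 1.04e-07), and *Cyp4d1* averaged 466 ± 73.8 and 45.4 ± 20.5 (at least 2.06-fold). *Cyp6g1*, known for insecticide resistance, averaged 1442 ± 247 and 4113 ± 364 (log2 difference -1.52 ± 0.14), *Cyp28d1* 1621 ± 264 and 7581 ± 277 (log2 difference -2.24 ± 0.12) and *Cyp6w1* 339.6 ± 73.5 and 2762 ± 64.3 (log2 difference -3.04 ± 0.15). Of 34 glutathione S-transferases, which conjugate such compounds, 13 marked abdomen and 10 head/thorax. *GstO1* averaged 1557 ± 90.2 in abdomen and 410.4 ± 42.7 in head/thorax (log2 difference 1.93 ± 0.094), *GstE6* 4443 ± 701 and 1452 ± 73.7 (log2 difference 1.60 ± 0.11), and *GstE2* 38.1 ± 10.1 and 536 ± 54.3 (at least 4.997-fold lower in abdomen).

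The 6 *loj* mutant arrays gave the same contrast in samples that played no part in choosing the marks. On them 3990 probe sets (21.3%) were called higher in abdomen and 6441 (34.3%) higher in head/thorax, as deposited. Of the 4239 abdomen marks of the controls, 4184 (98.7%) had the same sign in the mutants and 3709 (87.5%) were called in the same direction. Of the 4017 head/thorax marks, 4009 (99.8%) had the same sign and 3874 (96.4%) were called. The mutant call used 1.5-fold as deposited in both directions, whereas the marks had to reach 2.26-fold for head/thorax and 1.5-fold for abdomen. The shares of the 2 body parts are therefore not on equal terms. Tested on all 12 arrays, the difference between body parts itself differed between mutants and controls for 95 probe sets (0.506%), among them 33 abdomen marks and 40 head/thorax marks. *Ilp8*, which led the abdomen marks, differed by 12.16 on the log2 scale in the mutants and 12.48 in the controls. Every control head/thorax value of *Ilp8* was under 1 and set to 1. The size of 12.48 thus rests on that floor, and the control bound was at least 25.5-fold.

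**Figure D5:**
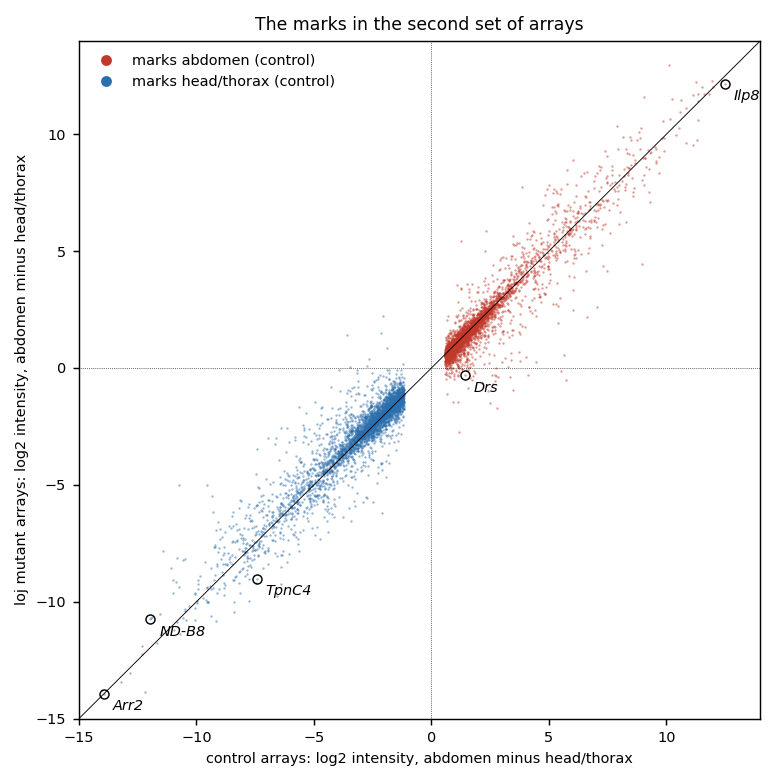
Log2 difference in intensity, abdomen minus head/thorax, of all marks on the 6 *loj* mutant arrays (vertical axis) against the 6 control arrays (horizontal axis) that chose them; red points mark abdomen and blue points head/thorax, and the diagonal is the line of equal differences. Nearly all points keep their sign (98.7% and 99.8%), and *Drs* is one of those that do not.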

How the data were processed

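RNA of 12 samples was hybridised to Affymetrix Drosophila Genome 2.0 arrays, 1 array per sample. The paper describes 6 independent RNA extractions per genotype. Of these, 3 RNA samples per genotype and body part went to arrays, and the rest were kept for qPCR. Nothing says that the extractions came from separately reared flies, so p-values measure the spread between these samples only. What was deposited is 1 linear intensity per probe set and array. The authors used dChip and GCOS (version 1.2 in the submitters' processing notes). The sources used here do not state which made the deposited intensities or how arrays were scaled, so every mark was required under 2 scalings.

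Log2 was taken with a floor of 1 on the intensity. The 183 array control probe sets were left out. The control body parts were fitted in limma (3.58.1, R 4.3.3; lmFit and eBayes with trend, Benjamini-Hochberg adjustment over 18769 probe sets), on the 6 control arrays. The *loj* arrays were fitted alike, and the interaction on all 12. Depth has no meaning for arrays, and 3 per group limit the precision. On simulated data, 67, 67 and 66 of 18769 probe sets were changed 1.5-, 2- and 4-fold. Of these 10.4%, 37.3% and 74.2% were called, with 1 false call. With so few changes the adjusted p is stricter than in the real comparison, and a 1.5-fold change lies on the fold threshold itself. The shares therefore do not carry over to the real comparison. Log2 values correlated by 0.955 to 0.961 within a body part and by 0.633 to 0.659 between them.

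Of the probe sets, 13647 carry 1 gene symbol in the array annotation, 402 several and 4720 none; 13544 symbols matched a gene of RefSeq (Release 6 plus ISO1 MT), and for each gene the probe set brightest on average was used. Genes named are, per direction, the 12 largest marks above background on all 3 arrays of the higher body part with groups that do not overlap; the defining members of 37 lists; per list and direction up to 5 further marks by intensity; every actin, tubulin, troponin C and Hox gene; the 5 probe sets of lowest interaction p; and *loj*. Other genes named (among them *Mal-A7*, *Jon65Aiii*, *Jon65Aiv*, *ninaD*, *pinta*, *bmm*, *Lsd-2*, *tud*, *fs(1)K10*, *RpL32* and *RpS7*) were chosen after their values were seen. The members and lists were chosen with earlier results of these data known. Sequences were not analysed here. Alternatives tried were other scalings, a larger added constant, filters on dim probe sets, no trend, all 12 arrays, a replicate block, other thresholds, a Cyber-T style test, another probe set per gene and leaving out each array.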

Additional observations from a re-analysis of the deposited data

Results flagged for a closer look

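In these 9 named probe sets the difference between body parts itself differed between *loj* mutants and controls (interaction on all 12 arrays in limma, adjusted p under 0.05). Values are the change in the log2 difference, abdomen minus head/thorax, mutant minus control. Groups of 3 arrays were too small to look for single outlying arrays.

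*ND-B8*, a complex I subunit, changed by 1.22: in head/thorax it averaged 1728 ± 46.0 in mutants and 4014 ± 59.0 in controls (SD, n = 3 each), and in abdomen it was at background in both. *Tsf1*, transferrin, changed by 0.66, with 4395 ± 266 in mutant and 2860 ± 280.2 in control abdomens and with 11268 ± 604 and 11574 ± 414 in head/thorax. *Drs*, drosomycin, changed by -1.73 and turned direction, since mutant head/thorax averaged 11601 ± 2361 and control head/thorax 2418 ± 678, against 9305 ± 2021 and 6284 ± 789 in abdomen. *TpnC4*, of flight muscle, changed by -1.60, but its abdomen values, 19.6 ± 3.54 in mutants and 68.2 ± 21.9 in controls, were all at background.

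The others were the 5 of lowest p. *CG18586* changed by -4.44, *CG11672* by 3.61 and *CG31265* by 3.89, and in each the change lay in values at background in all 6 samples of the dimmer body part. Probe set 1624543_s_at, which carries no symbol, changed by 1.73, with 537 ± 22.8 in mutant and 163 ± 17.8 in control abdomens, above background on all 6. Probe set 1629126_at, also without a symbol, changed by -3.28, with 44.8 ± 4.85 in mutant abdomens, at background, and 498 ± 125 in control abdomens.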

How the results depend on the processing

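The calls depend on how the arrays are put on 1 scale. As deposited 4239 probe sets were higher in abdomen and 6185 lower, against 7003 and 4017 after median centring, with all 4239 and 4017 among the calls of both. After quantile normalization 5518 and 4775 were called (53.6% higher). In the *loj* arrays median centring gave 6627 higher and 3989 lower. Requiring at least 4-fold left 1288 and 2640. Without the dimmer part of the probe sets, those below the median intensity, 3312 were higher and 3437 lower (49.1% higher), and keeping only those above background on all arrays of a body part left 3612 and 3384 (51.6% higher), against 40.7% higher over all probe sets. Median centring turned the direction of *Yp1* (0.49), *Yp2* (0.32), *Yp3* (0.28), *alphaTry* (0.50), *Ir25a* (0.37) and *loj* (0.44), and none of these was a mark; the block after centring gave the same values. Quantile normalization turned *alphaTry* (0.0038) and *Ir25a* (0.30), and adding 32 turned *dj* (0.027).

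The paper's methods had the abdomen cut from the head/thorax of the same females, so samples may be paired. The labels do not say which samples share females. Deviations of same-numbered samples correlated by 0.014 to 0.078, and those of other pairs by -0.064 to 0.020. Abdomens 2 and 3 correlated best with the head/thorax sample of their own number, and abdomen 1 with head/thorax 2. Pairing by number was thus left undecided. With replicate number as a block 4183 were higher and 6133 lower, and after centring with the block 6955 and 4050. The interaction gave 51 higher and 44 lower probe sets, against 31 and 31 with the block. Leaving out 1 array at a time gave 3984 to 4232 abdomen marks and 3835 to 4037 head/thorax marks, the block 4181 and 4049, both chosen after seeing the data. Without 1 array, *dj* (-1.65 to 0.78), *betaTub85D* (-0.087 to 0.33), *TpnC73F* (-0.059 to 0.30) and *Acp26Aa* (-0.16 to 2.04) turned direction, none of them called; 4 of 251 named and called probe sets lost the call, *Vha100-3*, *Vha100-5*, *Or22a* and *SP*. Of 264 named probe sets 247 were marks. Signal over background limits the dim genes: 17 of 18 chemosensory receptors were above background on no array.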

Other observations

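Some marks of a body part lay next to each other in the genome. This pattern was looked for after the values were seen and is given as a description, with no test. With 11891 genes placed in the order of the RefSeq annotation (Release 6 plus ISO1 MT), 129 runs of at least 4 neighbouring genes all marked abdomen (592 genes, the longest of 9), and 67 such runs marked head/thorax (320 genes, the longest of 8). These are 17.2% of 3446 placed abdomen genes and 11.7% of 2737 placed head/thorax genes. Since 29.0% and 23.0% of all placed genes marked these parts, some such runs would arise in any order of the genes, and how many was not computed. Some runs were gene families. *Cp18*, *Cp15*, *Cp19* and *Cp16*, the chorion cluster, formed an abdomen run with their neighbours *CG32022* and *CG6511*. In head/thorax, *NimB1* to *NimB5* and *NimC1*, of the Nimrod family, and *He*, a hemocyte surface protein, ran on to *Cyp28a5*. *BomS4*, *BomBc2*, *BomS2*, *BomT2*, *BomS5* and *BomS6*, Bomanin immune peptides, stood beside *Idgf5*. The tetraspanin genes from *Tsp42Eg* to *Tsp42El* formed a run with *lbm*. Other runs held genes with no family in common, such as the 9 from *Phb1* to *pigeon*, which include *brat* and *gammaTub37C*. Families also share sequence, and how far related probe sets share signal was not tested.

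Some genes gave marks in both directions. Of 1094 genes with more than 1 probe set, 63 marked abdomen by one and head/thorax by another. Among the genes named above these were *Hr39*, *Dap160*, which marked abdomen by its brightest probe set at 787 ± 122 in abdomen and 315 ± 18.3 in head/thorax, and *GstE9*, at 1801 ± 392.1 in abdomen and 5945 ± 459.5 in head/thorax. Which transcripts the probe sets match was not analysed here.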
